A study of Mus musculus with 2 samples.

Results

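Id1, Id2, Id3 and Id4, the genes of inhibitor-of-DNA-binding proteins, and Smad6 and Smad7, the genes of the inhibitory SMAD proteins, were followed in germ cells of the fetal mouse testis. The 6 genes were taken by name, with earlier results of these data known, and all 6 were listed for both libraries, of 17244 genes listed for either. Single-cell RNA-seq by 10x v2 chemistry had been run on male germ cells of CD1 mouse embryos at the embryonic stages E12.5 and E13.5, named by days after conception. The cells had been isolated by fluorescence sorting for the Oct4-GFP reporter, a green fluorescent protein that marks cells in which Oct4 (Pou5f1) is active, and both libraries share that reporter and strain. Each stage is 1 library, the sources used here do not give the number of embryos behind it, and no other treatment or genotype is named. Stage and library therefore cannot be told apart, no test was made, and each interval is a 95% interval that covers counting error only.

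Bone morphogenetic proteins (BMPs) are secreted ligands that bind pairs of type I and type II receptors on the cell surface. The type I receptors phosphorylate SMAD1, SMAD5 and SMAD9, which join SMAD4, enter the nucleus and bind the promoters of target genes, among which the Id genes and Smad6 are classical examples. Id proteins have a helix-loop-helix domain but no DNA-binding region, and they hold E proteins such as the products of Tcf3, Tcf4 and Tcf12 away from DNA. SMAD6 and SMAD7 act in the opposite direction, since SMAD6 mainly limits BMP signalling and SMAD7 limits both BMP and TGF-beta or Nodal signalling. BMP signals from somatic neighbours are needed when germ cells are first specified, and in the fetal ovary BMP and retinoic acid together drive germ cells towards meiosis. In the fetal testis germ cells stop dividing and take a male course with a period of Nodal signalling, of which Lefty1 and Lefty2, secreted antagonists of Nodal, are targets.

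In mouse GRCm38 coordinates (GENCODE), Id1 is the gene at chr2:152736251-152737410 on the plus strand, Id2 at chr12:25093799-25097140 on the minus strand, Id3 at chr4:136143497-136145755 on the plus strand and Id4 at chr13:48261228-48266026 on the plus strand. Smad6 spans chr9:63953076-64022059 on the minus strand and all 6 members, Smad7 included, are annotated as protein coding. Id4 is overlapped on the opposite strand by A330033J07Rik, which had 3 UMIs at E12.5 against 5 at E13.5. Whether the counting used strand is not stated.

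Promoter sequence was read for the members because they are known as direct SMAD targets. The RefSeq promoter table (GRCm38.p6, 250 bases before to 50 after each start) held 4 of the 6, namely Id2, Id3, Id4 and Smad6. The table's starts are not always those of the gene coordinates above. The start for Smad6 is the same, that for Id4 lies 112 bases before the gene, that for Id2 lies 1048 bases inside it and that for Id3 325 bases inside it. The Id2 and Id3 windows, all 300 bases, therefore lie inside the GENCODE gene, and no sequence upstream of that gene was read for them. The windows were searched for a pair of palindromes that SMAD proteins are known to bind, GGCGCC and GTCTAGAC, each of which reads the same on both strands. GGCGCC was present in 3898 of 32851 promoter windows (11.9%), so a match to it is common, and GTCTAGAC was present in 70 (0.213%). The Id2 and Id4 windows held GGCGCC, the Smad6 window held GTCTAGAC and the Id3 window, inside the gene, held neither run of letters. A match is a description of the letters, and binding was not measured. The stretches with the matches are shown 5′ to 3′ on the gene's strand with the match in capitals: Id2 (chr12:25096254-25096342, minus strand, match beginning 231 bases before the table's start), Id4 (chr13:48260866-48261115, plus strand, 148 bases before its start in the table) and Smad6 (chr9:64022056-64022309, minus strand, 4 bases before its start).
Id2: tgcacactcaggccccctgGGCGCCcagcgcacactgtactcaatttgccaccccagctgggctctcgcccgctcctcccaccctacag
Id4: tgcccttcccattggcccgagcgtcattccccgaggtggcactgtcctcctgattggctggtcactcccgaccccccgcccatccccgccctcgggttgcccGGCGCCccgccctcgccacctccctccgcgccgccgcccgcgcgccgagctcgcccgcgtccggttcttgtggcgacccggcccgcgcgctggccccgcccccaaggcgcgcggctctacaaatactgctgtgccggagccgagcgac
Smad6: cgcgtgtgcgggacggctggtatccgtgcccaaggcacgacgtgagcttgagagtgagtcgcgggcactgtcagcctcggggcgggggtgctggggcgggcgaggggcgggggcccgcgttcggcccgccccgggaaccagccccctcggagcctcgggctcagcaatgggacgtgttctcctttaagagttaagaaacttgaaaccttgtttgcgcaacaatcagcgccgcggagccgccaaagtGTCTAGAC

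The deposited tables gave whole-number counts of unique molecular identifiers (UMIs), 60383440 over 2847 barcodes at E12.5 against 59842242 over 2992 barcodes at E13.5. After a filter on genes and mitochondrial UMIs, 2621 and 2670 barcodes were kept, and 2498 (95.3%) and 2569 (96.2%) fell in clusters called germ-like from 10 germ cell markers. Germ-like barcodes had medians of 23481 and 21795 UMIs. All 10 germ markers were above 2 CPM (counts of a gene per 1000000 UMIs) in both libraries, and their summed level was 7218 CPM at E12.5 against 8280 CPM at E13.5. Markers of other cell types were low, with interstitial, mural, macrophage and Leydig lists each summing to between 0.335 and 1.68 CPM. The Sertoli list summed to 11.4 and 13.2 CPM, mostly from Aard. The endothelial list summed to 120 and 48.7 CPM, mostly from Pecam1 (77.3 and 25.6 CPM), while its defining members Cdh5 and Kdr stayed between 0.0852 and 0.375 CPM. Of its other members, Egfl7 was at 16.1 and 9.34 CPM, Cldn5 at 14.9 and 10.04 CPM, Plvap at 8.11 and 1.77 CPM and Esam at 3.12 and 1.55 CPM, and Emcn had no UMI. Of the 7 with UMIs, 5 were thus at least 1.5-fold lower at E13.5 and Cdh5 was higher. The surface epithelial list summed to 3.45 and 4.71 CPM, and the erythroid list, mainly haemoglobin genes, was 0.285 CPM at E12.5 against 23.1 CPM at E13.5. The libraries shared 24 barcode sequences, 9 of them germ-like in both, and the stage ratios of the 6 members kept their directions when shared sequences were left out.

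Id3 was by far the most abundant of the 6 genes and was 2.61-fold lower at E13.5. Id1, Id2 and Smad6 were also lower at E13.5, Id4 was higher, and Smad7 was nearly level. Levels are CPM over the summed UMIs of germ-like barcodes, and since the assay counts transcript ends, they are not scaled by gene length. With 1 count per molecule, differences in capture between genes also enter any comparison of one gene with another.

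Id1, the member most often used as a readout of BMP signalling, had 851 UMIs at E12.5 against 386 UMIs at E13.5. These are levels of 14.3 CPM and 6.58 CPM, 2.17-fold lower at E13.5 (95% interval 1.92 to 2.45). Id2 was at 8.46 CPM (505 UMIs) and 4.59 CPM (269 UMIs), 1.85-fold lower (1.59 to 2.15). Id3 was at 197 CPM (11730 UMIs) and 75.2 CPM (4409 UMIs), 2.61-fold lower (2.53 to 2.71). The ratios of Id1, Id2 and Id3 all lay below 1 with intervals that did not reach it.

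Id4, the only Id gene in the opposite direction, was at 5.41 CPM (323 UMIs) at E12.5 against 9.92 CPM (582 UMIs) at E13.5, 1.83-fold higher (1.60 to 2.11). Smad6, the inhibitory SMAD that BMP signalling itself induces, was at 8.51 CPM (508 UMIs) and 5.01 CPM (294 UMIs), 1.70-fold lower (1.47 to 1.97). Smad7 was at 34.0 CPM (2027 UMIs) and 32.9 CPM (1929 UMIs), a ratio of 0.968 with an interval from 0.909 to 1.03. With 1.5-fold as the limit of size, 4 members were lower, 1 was higher and 1 lay between. Among 11710 genes that reached 1 CPM in at least 1 library, a minimum that all 6 members met in both, 14.6% were at least 1.5-fold lower and 14.8% at least 1.5-fold higher. Among 7307 genes at 10 CPM or more the shares were 9.95% lower and 8.57% higher, and of the 3 members there, Id1 and Id3 were lower and Smad7 lay between. Id1 met that minimum through E12.5 alone. The endothelial and erythroid lists differed between the libraries as well, as given above. Without the barcodes that held a UMI of a somatic marker under 2 CPM, an alternative chosen after seeing the data that left 2221 and 2192, the log2 ratio was -1.13 for Id1, -1.37 for Id3 and 0.90 for Id4, beside -1.12, -1.39 and 0.87 with them. The part of haemoglobin RNA was not tested.

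**Figure D1:**
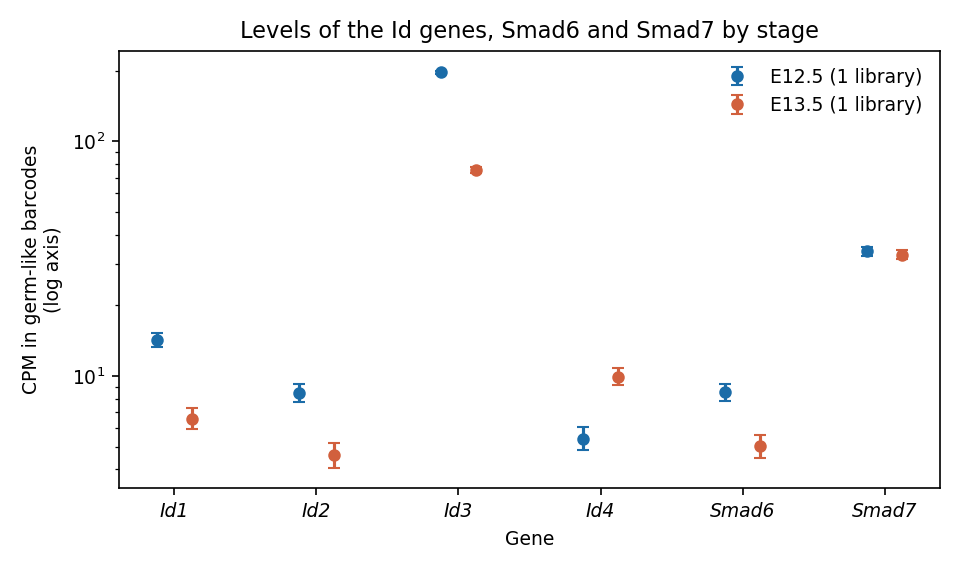
Level of each gene in germ-like barcodes at E12.5 and E13.5 in CPM on a log axis, 1 library per stage. Points are levels and bars exact Poisson 95% intervals, which cover counting error only. Id3 sits highest at 197 and 75.2 CPM, and Id4 alone is clearly higher at E13.5.

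The 4 Id genes together held 225 CPM at E12.5 against 96.3 CPM at E13.5, a ratio of 0.428 (0.415 to 0.442). Id3 made up 87.5% of their UMIs at E12.5 (exact binomial interval 86.9 to 88.0%) against 78.1% at E13.5 (77.0 to 79.2%). Id4 made up 2.41% (2.16 to 2.68%) and 10.3% (9.53 to 11.1%). Id1 held 6.35% and 6.84%, with overlapping intervals. The Id pool thus differed in size between the libraries, and in the share taken by Id3 and by Id4.

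Shares of barcodes with a UMI were compared after each germ-like barcode had been thinned at random to 14500 UMIs. This left 2325 barcodes at E12.5 against 2323 at E13.5, with 173 and 246 shallower barcodes left out. Id3 was found in 88.4% of barcodes at E12.5 (87.1 to 89.7%) against 53.5% at E13.5 (51.5 to 55.6%), against 95.04% and 63.3% without thinning. Id1 was found in 16.1% (14.7 to 17.7%) and 7.53% (6.49 to 8.68%), against 22.1% and 11.9% without thinning. Id1 and Id3 were thus both found in fewer barcodes at E13.5 at equal depth.

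Id2 was found in 10.7% (9.44 to 11.99%) and 5.42% (4.54 to 6.42%), against 16.3% and 8.84% without thinning. Smad6 was found in 10.5% (9.24 to 11.8%) and 6.93% (5.93 to 8.04%), against 17.9% and 10.5% without thinning. Id4 went the other way, with 7.23% (6.21 to 8.36%) and 13.52% (12.2 to 14.97%), against 11.5% and 19.5% without thinning. Smad7 was found in 38.2% (36.3 to 40.2%) and 36.4% (34.4 to 38.4%), intervals that overlap, against 53.1% and 49.8% without thinning.

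Id1 was concentrated in few barcodes at E12.5. Of 2325 barcodes, 1950 had no Id1 UMI, 288 had 1 and 87 had 2 or more, with a highest count of 11. At E13.5, 2148 had none, 157 had 1 and 18 had 2 or more, with a highest count of 4. The Fano factor, the variance of a count over its mean, was 1.72 for Id1 at E12.5 against 1.21 at E13.5, and 1.81 and 1.99 for Id3. Among genes at 10 CPM or more the median was 1.04 and 1.05 and the 90th percentile 1.16 and 1.197. Id1, Id2 (1.20 and 1.25) and Id3 lay above that percentile at both stages. Id1 at E13.5 and Id2 at both stages were themselves under 10 CPM. For Id3 the highest counts were 15 and 10, and 478 barcodes had 5 or more at E12.5 against 81 at E13.5. Smad7, at 1.04 and 1.09, was close to the median gene.

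**Figure D2:**
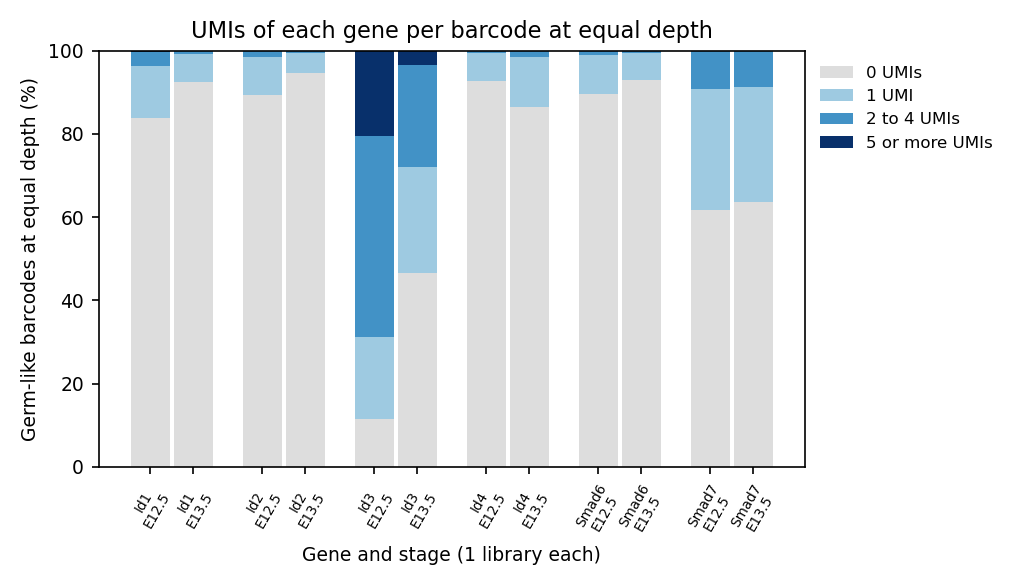
Share of germ-like barcodes with 0, 1, 2 to 4 and 5 or more UMIs of each gene at an equal depth of 14500 UMIs, by stage (1 library each). Bars sum to 100%. Id3 is the only gene with a visible share at 5 or more UMIs, 20.6% at E12.5 against 3.49% at E13.5.

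The members were also set against each other within a library. Barcodes at E12.5 were split by Id3 counts into 269 with none, 929 with 1 to 2, 649 with 3 to 4 and 478 with 5 or more, and the Id1 level in these was 7.43, 12.4, 17.0 and 22.5 CPM. At E13.5 the same classes held 1080, 900, 262 and 81 barcodes and Id1 stood at 5.11, 5.75, 7.37 and 12.8 CPM. Id2 followed the same order, with 4.36, 5.87, 10.5 and 13.7 CPM at E12.5 and 3.001, 3.83, 6.32 and 17.9 CPM at E13.5. Id4 did not, with 13.1, 8.51, 8.42 and 7.66 CPM at E13.5. Id1 and Id2 were therefore highest in barcodes with the most Id3, and Id4 at E13.5 was highest in barcodes with none.

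The other genes of the pathway were read from lists taken by function, among genes that reached 10 CPM in at least 1 library. A gene that reached 10 CPM in 1 library alone could only be lower in the other. The counts below stand beside the shares over all genes at that minimum, 9.95% lower and 8.57% higher. Of the ligands, 7 of 15 were listed for either library and 2 reached 10 CPM. Bmp4, a ligand needed for germ cell specification, was at 27.0 CPM at E12.5 against 35.7 CPM at E13.5, a ratio of 1.32 (1.24 to 1.41). Bmp7 was at 17.5 and 18.3 CPM, a ratio of 1.05 (0.962 to 1.14). Neither ligand was 1.5-fold apart.

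Of 8 receptor genes, 2 reached 10 CPM, and neither was 1.5-fold apart. Acvr2b, a type II receptor, was at 39.7 and 33.7 CPM, a ratio of 0.848 (0.799 to 0.901). Bmpr1a, a type I receptor for BMPs, was at 21.5 and 23.9 CPM, a ratio of 1.11 (1.03 to 1.20). Of the 6 receptors under 10 CPM, named after their values were seen, Eng, the co-receptor endoglin, was at 8.998 and 1.36 CPM (6.60-fold lower, 5.21 to 8.45) and Acvr1, a type I receptor, at 4.42 and 2.52 CPM (1.75-fold lower, 1.43 to 2.16). Bmpr1b, another type I receptor, went the other way on 6 and 19 UMIs (3.22-fold higher, 1.24 to 9.86), and Acvrl1 had 11 and 4 UMIs, with an interval that included 1. Bmpr2 and Acvr2a were not 1.5-fold apart. Of the signal-carrying SMAD genes, Smad5 was at 13.9 and 18.2 CPM (ratio 1.31), Smad1 at 8.75 and 10.2 CPM (1.17) and Smad4 at 20.9 and 19.1 CPM (0.918), so 3 of 3 lay between the limits.

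Of the inhibitors besides Smad6 and Smad7, 6 reached 10 CPM, of which 1 was higher and 5 lay between. Tob2, a member of a family of antiproliferative proteins that can restrain SMADs, was at 6.47 and 20.9 CPM, 3.24-fold higher (2.88 to 3.64). Smurf1, a ubiquitin ligase for SMADs, was at 8.60 and 11.7 CPM (ratio 1.36) and Smurf2 at 10.7 and 10.1 CPM (0.947). Bambi, a pseudoreceptor and itself a BMP target, was at 15.5 and 10.7 CPM (0.691). Ski, a corepressor of SMADs and the most abundant of the list, was at 49.3 and 48.0 CPM (0.972). Thus the inhibitor list as a whole did not share the direction of Smad6.

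Other genes known as BMP targets in germ cells or elsewhere were lower more often than not, with 3 of 5 at 10 CPM or more at least 1.5-fold lower and none higher. Over the 7 with a ratio at any level, 5 were lower and none higher, with a median log2 ratio of -1.14, beside -0.82 over the 6 members. All 7 reached 1 CPM in at least 1 library. Among 11710 genes at that minimum, 14.6% were at least 1.5-fold lower and 14.8% at least 1.5-fold higher. Atoh8, the remaining gene of the list, went the other way, with 2 UMIs (0.0335 CPM) at E12.5 against 43 UMIs (0.733 CPM) at E13.5. It had too few UMIs at E12.5 for a ratio. Msx2, a homeobox factor, was at 10.4 and 1.48 CPM, 7.02-fold lower (interval of the ratio 0.113 to 0.179), and reached 10 CPM through E12.5 alone. Tfap2c, a transcription factor of early germ cells, was at 35.2 and 10.7 CPM, 3.28-fold lower. Hey1, which is also a Notch target, was the most abundant, at 42.5 and 19.7 CPM, 2.16-fold lower. Zglp1, a factor that BMP signalling induces in ovarian germ cells, was at 26.3 and 24.96 CPM (ratio 0.948), and Prdm1, a repressor needed for germ cell specification, at 27.8 and 25.3 CPM (0.910). Gata2, under 10 CPM and named after its values were seen, was at 7.16 and 1.02 CPM, 6.99-fold lower.

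None of the 3 genes for partners of Id proteins was 1.5-fold apart. Tcf3 was at 110 and 126 CPM (ratio 1.15), Tcf12 at 37.7 and 39.2 CPM (1.04) and Tcf4 at 29.4 and 44.0 CPM (1.497, just under the limit). Of the Nodal genes, 7 reached 10 CPM, with 1 higher, 3 lower and 3 between. Lefty1 was at 93.2 and 152 CPM, 1.63-fold higher (1.58 to 1.69), while Lefty2 was at 236 and 95.3 CPM, 2.48-fold lower. Lefty1 and Lefty2 are near-identical neighbours on chromosome 1, so the counting may have split their molecules wrongly between them, and their sum was at 329 and 247 CPM. Nodal was at 11.8 and 6.85 CPM (ratio 0.579) and Tgfbr1 at 12.1 and 12.3 CPM (1.02).

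Of the genes of meiosis and retinoic acid response, 7 reached 10 CPM, with 3 higher and 4 between. Sycp1, of the synaptonemal complex, was at 26.3 and 185 CPM (7.02-fold higher), Sycp2 at 6.38 and 21.3 CPM (3.34-fold higher), and Smc1b, a meiotic cohesin and the most abundant, at 137 and 281 CPM (2.05-fold higher). Crabp1 was at 16.7 and 14.1 CPM (ratio 0.847) and Sycp3 at 49.4 and 58.0 CPM (1.17). Stra8, which retinoic acid induces before meiosis, was at 6.52 CPM (389 UMIs) and 2.35 CPM (138 UMIs), 2.77-fold lower. The direction of Stra8 was thus that of Id1, and the direction of the chromosome axis genes was not.

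At E12.5, barcodes with Stra8 had more Id1. After thinning, 103 of 2325 barcodes (4.43%) held a Stra8 UMI, and Id1 was at 38.2 CPM in these (57 UMIs) and 14.1 CPM in the other 2222 (455 UMIs). The ratio was 2.70 (2.01 to 3.57), and 6.83 (2.66 to 15.6) when any barcode with a somatic marker UMI was left out, which kept 6 with Stra8. Id1 was found in 30.1% of barcodes with Stra8 (21.4 to 39.9%) and 15.5% of those without (14.0 to 17.0%). In the 51 barcodes with 2 or more Stra8 UMIs, Id1 was at 44.6 CPM, 3.16-fold higher than in barcodes without (2.15 to 4.50).

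The other Id genes and Smad6 lay on the same side in the E12.5 barcodes with Stra8. Id4 was at 12.7 against 5.06 CPM, a ratio of 2.51 (1.48 to 4.05). Id2 was at 15.4 against 8.29 CPM (1.86, 1.16 to 2.85), Smad6 at 13.4 against 7.63 CPM (1.75, 1.05 to 2.77) and Id3 at 269 against 195 CPM (1.38, 1.24 to 1.52). Smad7 was at 35.5 against 33.9 CPM, a ratio of 1.05 (0.779 to 1.38). With 1.5-fold as the limit, 4 of 6 members were higher in barcodes with Stra8 and none lower. Among 6892 genes at 10 CPM or more in these sets, 2.96% were at least 1.5-fold higher and 4% at least 1.5-fold lower. Id2, Id4 and Smad6 lie under that minimum, and among 2020 genes at 4 to 10 CPM, a range chosen after seeing the data, the shares were 17.2% higher and 15% lower.

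Both sets were close in their germ, endothelial and Sertoli lists. They had been taken from clusters named by germ markers, without barcodes in which a list of another cell type took 0.5% of UMIs or more. The lists therefore describe both sets and do not test their identity. The germ list summed to 7088 CPM with Stra8 and 7193 CPM without, the endothelial list to 119 and 123 CPM and the Sertoli list to 11.4 and 10.9 CPM. Cdh5, Kdr, Amh, Cst9, Col1a1 and C1qa, defining markers of endothelial, Sertoli, interstitial and macrophage cells, had no UMI in the 103 barcodes. They had only 2 to 10 UMIs each in the other 2222, so a count of 0 says little. The macrophage, mural, erythroid and mesonephric lists were at 2.01, 1.34, 1.34 and 0.670 CPM with Stra8 and 1.58, 1.15, 0.186 and 0.528 CPM without. The interstitial, Leydig and epithelial lists went the other way, at 0, 0 and 1.34 CPM against 0.341, 0.900 and 3.20 CPM. Median UMIs before thinning were 22161 and 24028. Doublet calls made up 2.91% and 2.79%. Of 6 other genes of the meiosis and retinoic acid list at 10 CPM or more, Sycp1, Sycp3, Smc1b and Rara were at least 1.5-fold higher with Stra8 and none was lower. Sycp1 was 1.99-fold higher (1.55 to 2.52), and Rec8, a meiotic cohesin under that minimum and named after its values were seen, was at 17.4 against 3.01 CPM. Of 5 BMP targets, 1 was higher and 2 were lower: Zglp1 was 1.89-fold higher (1.45 to 2.41), Hey1 had a ratio of 0.486 (0.329 to 0.693) and Msx2 one of 0.588 (0.267 to 1.13).

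The relation was also read from the side of Id1. The 375 barcodes with any Id1 UMI had Stra8 at 13.4 CPM against 5.84 CPM in the 1950 without, 2.30-fold higher (1.72 to 3.05). The 87 barcodes with 2 or more Id1 UMIs at E12.5 had Stra8 at 30.1 CPM against the same 5.84 CPM, 5.16-fold higher (3.53 to 7.38). Stra8 was found in 17.2% of these and 3.69% of barcodes without Id1. Barcodes with 1 Id1 UMI lay between, at 8.38 CPM of Stra8. In the same comparison Zglp1 was 2.26-fold higher (1.74 to 2.90), Gata2 3.03-fold higher (1.87 to 4.70) and Id3 1.52-fold higher (1.36 to 1.69), while Lefty1 and Lefty2 had ratios of 0.703 (0.558 to 0.875) and 0.713 (0.622 to 0.815). The other BMP targets in this comparison are not reported here. Most barcodes with Id1 still had no Stra8, and 31 of 2325 had both, beside 16.6 from the product of the shares. Across the 2325 barcodes Pearson's r of the log counts was 0.110, a weak value in sparse counts.

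At E13.5 barcodes with Stra8 were few, and the interval for Id1 was wide. There, 46 of 2323 barcodes (1.98%) held Stra8, and Id1 was at 10.5 CPM in these (7 UMIs) and 5.78 CPM in the other 2277 (191 UMIs), a ratio of 1.81 with an interval from 0.720 to 3.81. The interval did not include 1 under 5 alternatives: 2.23 (1.09 to 4.07) without doublet calls, 2.22 (1.09 to 4.05) with germ-like barcodes taken by 3 or more germ markers, 1.69 (1.03 to 2.62) without thinning, 2.64 (1.34 to 4.72) without barcode sequences found in both libraries and 5.99 (2.31 to 13.1) without any somatic marker UMI, which kept 11 with Stra8. It included 1 under the others. These gave 1.99 (0.785 to 4.21) with at least 2000 genes and less than 5% mitochondrial UMIs, and 1.57 (0.622 to 3.29) with another draw of the thinning. Without barcodes holding a UMI of a somatic marker under 2 CPM the ratio was 1.77 (0.702 to 3.72). Leaving out barcodes also changes the draw of the thinning. Id2 was at 11.99 against 4.06 CPM (2.96, 1.25 to 5.99) and Id3 at 98.95 against 75.8 CPM (1.31, 1.01 to 1.67). Id4 (1.28, 0.580 to 2.46), Smad6 (1.49, 0.478 to 3.55) and Smad7 (0.640, 0.349 to 1.08) had intervals that included 1. By size, 2 of 6 members were at least 1.5-fold higher and Smad7 was lower. Over 6831 genes at 10 CPM or more in these sets 4.83% were higher and 5.52% lower. Id1 and Id2 lie under that minimum here, and among 2094 genes at 4 to 10 CPM 21% were higher and 22.5% lower.

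**Figure D3:**
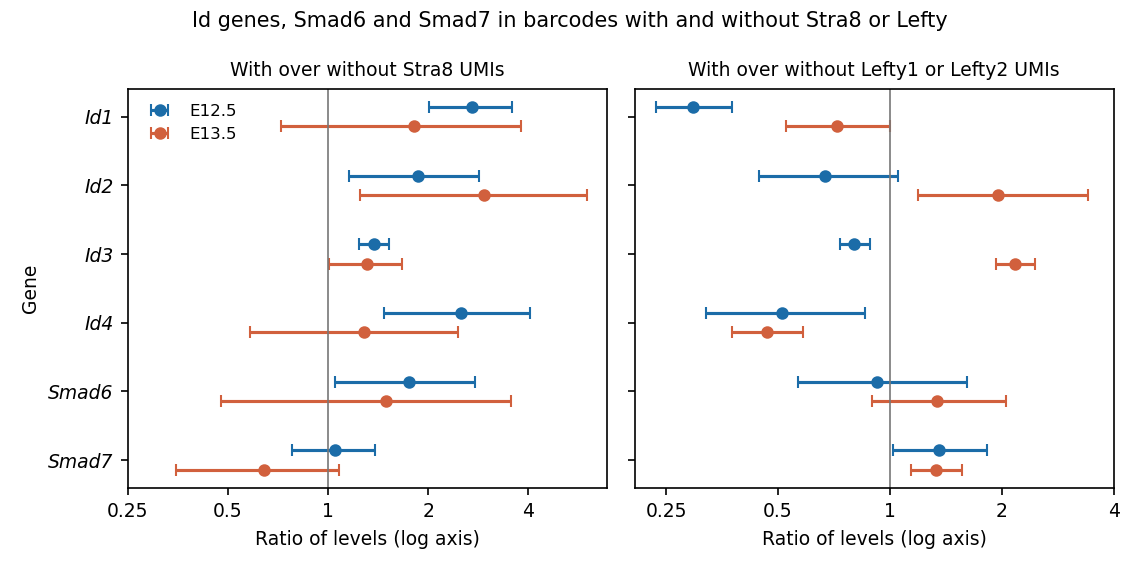
Ratio of the level of each gene in barcodes with over barcodes without Stra8 UMIs (left) and Lefty1 or Lefty2 UMIs (right), at E12.5 and E13.5, on log axes. Bars are exact conditional 95% intervals and the vertical line marks 1. Id1 at E12.5 sits at 2.70 for Stra8 and 0.296 for Lefty, and Id3 lies on opposite sides of 1 for Lefty at the 2 stages.

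At E12.5, barcodes without Lefty transcripts had the most Id1. Nearly all barcodes held Lefty1 or Lefty2 at that stage, 2187 of 2325, and 138 held neither. Id1 was at 45.0 CPM in the 138 (90 UMIs) and 13.3 CPM in the 2187 (422 UMIs), a ratio with over without Lefty of 0.296 (0.235 to 0.376). It was 0.146 (0.122 to 0.177) without thinning and 0.551 (0.325 to 0.908) at 2000 UMIs, a depth that left more barcodes without a Lefty UMI. Id1 was found in 34.1% (26.2 to 42.6%) of barcodes without Lefty and 14.998% (13.53 to 16.6%) of those with it. The step lay at the first Lefty UMIs: in barcodes with 0, 1 to 2, 3 to 9 and 10 or more Lefty UMIs (138, 512, 1458 and 217 barcodes), Id1 was at 45.0, 14.7, 12.9 and 13.0 CPM.

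The other members were closer to level across that split. Id4 was at 5.11 CPM with Lefty and 9.99 CPM without, a ratio of 0.511 (0.320 to 0.859), and Id3 at 196 and 244 CPM, a ratio of 0.803 (0.732 to 0.882). Id2 (0.669, 0.443 to 1.05) and Smad6 (0.924, 0.566 to 1.61) had intervals that included 1. Smad7 was higher with Lefty, at 34.5 and 25.5 CPM, a ratio of 1.35 (1.02 to 1.83). By size, Id1 and Id4 of the 6 were at least 1.5-fold lower with Lefty and none was higher. Over 6890 genes at 10 CPM or more in these sets 1.07% were at least 1.5-fold lower and 2.47% higher. Among 2021 genes at 4 to 10 CPM, where Id4 lies, the shares were 8.46% and 14.7%.

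Taken singly, Lefty2 gave a ratio of 0.373 for Id1 and Lefty1 a ratio of 0.653. The relation of Id1 to each of Stra8 and Lefty was present in the larger set of barcodes when split by the other. Stra8 itself was at 7.001 CPM with Lefty and 7.996 CPM without. Among barcodes without Stra8 the Lefty ratio of Id1 was 0.285 (0.223 to 0.366), and among barcodes with Lefty the Stra8 ratio of Id1 was 2.86 (2.07 to 3.87). The smaller sets rest on 9 barcodes with Stra8 and without Lefty, which held 9 Id1 UMIs. Among barcodes without Lefty the Stra8 ratio of Id1 was 1.59 (0.703 to 3.18), an interval that included 1. Among barcodes with Stra8, Id1 was at 35.2 CPM in the 94 with Lefty and 69.0 CPM in the 9 without.

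Barcodes without Lefty at E12.5, like those with it, had been taken from clusters named by these germ markers. The marker levels therefore describe both sets and do not test their identity. The germ list summed to 6725 CPM in barcodes without Lefty and 7218 CPM in those with Lefty, with Pou5f1 at 526 and 499 CPM. The endothelial list summed to 136 and 122 CPM, with Cdh5 and Kdr at 0.4998 CPM each in the former, 1 UMI each. C1qa also had 1 UMI, and Amh, Cst9 and Col1a1 had none. These last had only 2 to 5 UMIs each in the 2187 barcodes with Lefty, so a count of 0 says little. Median UMIs were 23406.5 and 23976, and doublet calls made up 1.45% and 2.88%. Zglp1 and Gata2 lay on the side of Id1, with ratios of 0.660 (0.521 to 0.847) and 0.440 (0.297 to 0.673). The BMP targets did not do so as a group. Of 5 at 10 CPM or more, Zglp1 and Msx2 were at least 1.5-fold lower with Lefty, beside 1.07% of 6890 genes. The other 3 lay between, with log2 ratios of -0.10 for Tfap2c, 0.13 for Hey1 and 0.11 for Prdm1. The summed G2/M list differed as well, at 7756 CPM without Lefty and 9108 CPM with it, and its part in the result was not tested.

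At E13.5 the order among members was different. Lefty transcripts were missing from 514 of 2323 barcodes, and Id1 was at 7.51 CPM in these (56 UMIs) and 5.41 CPM in the 1809 with Lefty (142 UMIs), a ratio of 0.720 with an interval that ran from 0.525 and just reached 1. At 2000 UMIs the ratio was 1.26 (0.581 to 2.64). Taken singly, Lefty2 and Lefty1 differed here, with Pearson's r of log counts with Id1 of -0.0745 and 0.0014. Barcodes with Id1 and Lefty2 were 88, beside 106 from the product of the shares. Those with Id1 and Lefty1 were 112, beside 111. Id3 was at 86.5 CPM with Lefty and 39.8 CPM without, a ratio of 2.17 (1.92 to 2.46). Id2 lay on the same side as Id3, at 4.73 and 2.41 CPM, a ratio of 1.96 (1.19 to 3.41). Id4 lay opposite, at 8.46 and 18.1 CPM, a ratio of 0.467 (0.376 to 0.583). Smad7 was at 34.4 and 25.9 CPM (1.33, 1.14 to 1.56), and Smad6 at 5.37 and 4.02 CPM (1.33, 0.895 to 2.05).

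These differences ran through the Lefty classes at E13.5. In barcodes with 0, 1 to 2, 3 to 9 and 10 or more Lefty UMIs (514, 654, 970 and 185 barcodes), Id3 was at 39.8, 64.6, 94.99 and 120 CPM. Id4 was at 18.1, 10.0, 7.82 and 6.34 CPM, and Id1 at 7.51, 5.69, 5.40 and 4.47 CPM. By size, Id2 and Id3 of the 6 members were at least 1.5-fold higher with Lefty and Id4 was at least 1.5-fold lower. Over 6840 genes at 10 CPM or more in these sets 3.57% were higher and 2.35% lower, and among 2094 genes at 4 to 10 CPM, where Id2 lies, 9.36% and 10.4%. Of 4 other BMP targets at 10 CPM or more at E13.5, Tfap2c and Hey1 were at least 1.5-fold higher with Lefty and 2 lay between. Across barcodes, Pearson's r of Id3 with the Lefty sum was 0.282 at E13.5 and -0.0652 at E12.5.

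**Figure D4:**
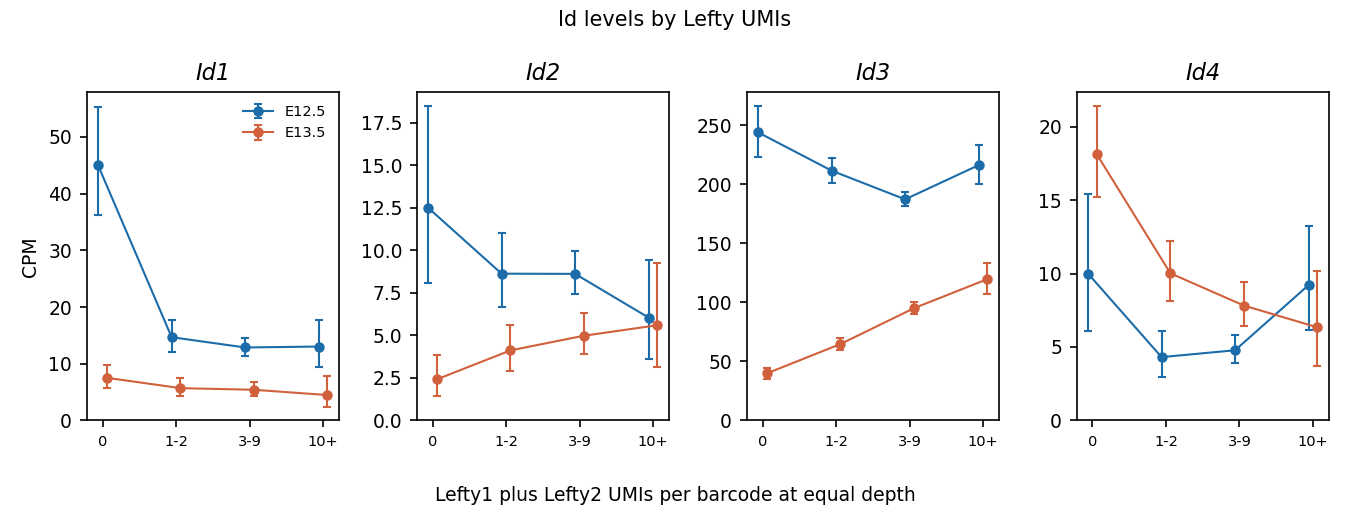
Level of each Id gene in CPM by the number of Lefty1 plus Lefty2 UMIs in a barcode at equal depth, at E12.5 and E13.5 (1 library each, axes starting at 0). Bars are exact Poisson 95% intervals. Id1 at E12.5 stands at 45.0 CPM in barcodes without Lefty, and at E13.5 the classes run from 39.8 to 120 CPM for Id3 and from 18.1 to 6.34 CPM for Id4.

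Nanos2, an RNA-binding protein of the male germ cell course, had 20 UMIs at E12.5 against 1516 at E13.5, so it could divide barcodes at E13.5 alone. Id3 was at 45.2 CPM in the 626 barcodes with Nanos2 and 87.7 CPM in the 1697 without, a ratio of 0.515 (0.463 to 0.573). Id4 was at 14.5 and 9.14 CPM, a ratio of 1.59 (1.27 to 1.98). Id1 (0.966, 0.690 to 1.33), Id2 (0.666, 0.424 to 1.01), Smad6 (0.855, 0.587 to 1.22) and Smad7 (0.912, 0.793 to 1.05) had intervals that included 1. By size, Id2 and Id3 were lower and Id4 was higher, while of 6841 genes at 10 CPM or more in these sets 2.84% were lower and 1.46% higher, and of 2094 at 4 to 10 CPM, where Id2 lies, 8.12% and 7.16%.

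Nanos2 and Lefty were themselves inversely arranged at E13.5, with Nanos2 at 56.9 CPM in barcodes without Lefty and 18.9 CPM in those with it. The Lefty difference of Id3 was present on both sides of the Nanos2 split, with a ratio of 1.69 (1.47 to 1.96) in barcodes without Nanos2 and 2.52 (1.98 to 3.24) in those with it. The Id4 ratio was 0.493 (0.365 to 0.673) and 0.525 (0.366 to 0.750). Id1 was lower with Lefty in barcodes without Nanos2, 5.24 against 9.70 CPM (0.540, 0.369 to 0.807), and had a ratio of 1.16 (0.642 to 2.16) in those with Nanos2. The lowest Id3 level of the 4 sets was 23.6 CPM, in 251 barcodes with Nanos2 and without Lefty, and the highest was 93.6 CPM, in 1434 barcodes with Lefty and without Nanos2.

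Sycp1 transcripts, in 1873 of 2323 barcodes at E13.5, went with more Id1 and Id4 and less Id3. Id1 was at 6.52 CPM with Sycp1 and 3.22 CPM without (2.03, 1.28 to 3.35), Id4 at 11.7 and 6.13 CPM (1.90, 1.37 to 2.72) and Id3 at 71.5 and 95.9 CPM (0.745, 0.680 to 0.817). At E12.5, with 638 of 2325 barcodes, the ratio of each of the 6 members had an interval that included 1, from 0.926 for Smad7 to 1.33 for Id4.

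Germ cells in the testis leave the cell cycle over these stages, so the members were also read against lists of cycle genes. Of 39 S phase genes at 10 CPM or more, 14 were at least 1.5-fold lower at E13.5 and none higher, with a median log2 ratio of -0.54. Rrm2 was at 112 and 28.3 CPM and Cdc6 at 22.4 and 7.37 CPM at one end, and Uhrf1 at 19.6 and 25.7 CPM and Tipin at 142 and 159 CPM at the other. Nasp was the most abundant, at 532 and 382 CPM. Of 49 G2/M genes 4 were lower and 1 higher, with a median of -0.21, from Mki67 at 180 and 98.4 CPM and Cdca3 at 108 and 61.6 CPM to Hjurp at 47.9 and 59.7 CPM and G2e3 at 46.0 and 76.1 CPM. Hmgb2 was the most abundant, at 1468 and 1235 CPM.

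When barcodes of both libraries were put into 4 bands by the G2/M list with common limits, Id1 and Id3 were lower at E13.5 in each of the 4. The ratio E13.5 over E12.5 from the lowest to the highest band was 0.147, 0.306, 0.523 and 0.546 for Id1, and 0.217, 0.468, 0.425 and 0.501 for Id3. Id4 had ratios of 2.33, 1.19, 1.41 and 1.79. Bands by the S phase list gave 0.234, 0.361, 0.467 and 0.517 for Id1 and 0.219, 0.442, 0.528 and 0.615 for Id3. The lowest G2/M band held 250 barcodes at E12.5 against 880 at E13.5, and in it Id1 was at 34.8 and 5.09 CPM and Id3 at 254 and 55.1 CPM.

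Within E13.5, Id3 and Id2 followed the S phase list. From the lowest to the highest S phase band Id3 was at 46.1, 78.5, 102 and 133 CPM, and Id2 at 2.55, 3.37, 5.41 and 9.17 CPM. At E12.5 Id2 was at 2.70, 6.35, 6.94 and 12.8 CPM, while Id3 was at 210, 178, 194 and 217 CPM with no steady order. Pearson's r of Id3 with the S phase list was 0.337 at E13.5 and 0.0796 at E12.5, across barcodes of 1 library each.

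**Figure D5:**
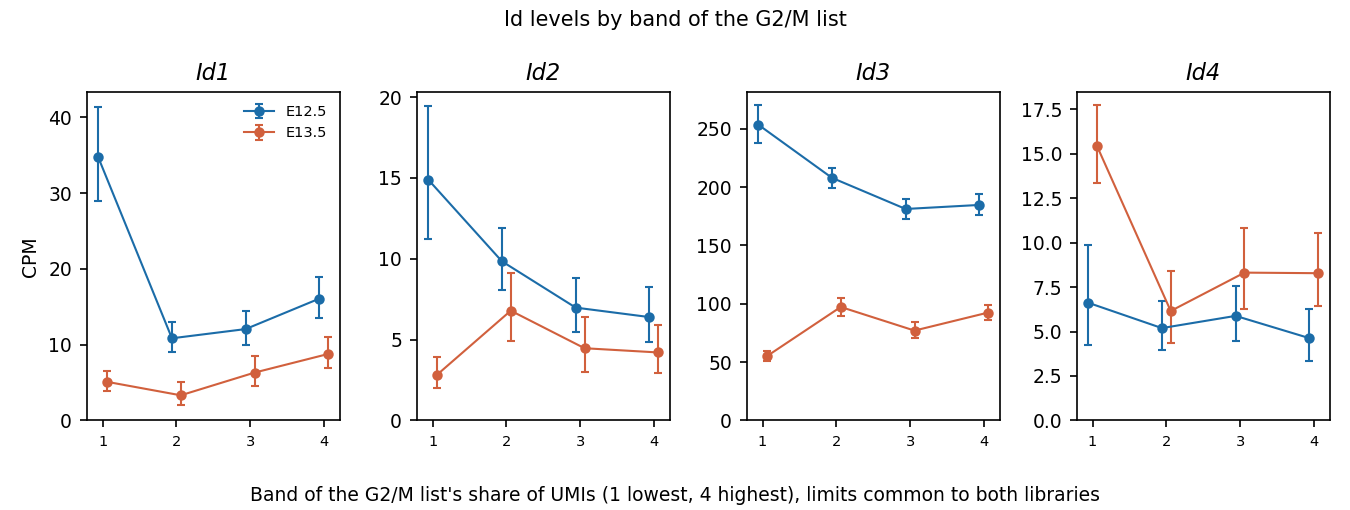
Level of each Id gene in CPM by band of the G2/M list's share of UMIs, with limits common to both libraries, at E12.5 and E13.5 (axes starting at 0). Bars are exact Poisson 95% intervals. Id1 at E12.5 is highest in the lowest band, at 34.8 CPM, and Id4 at E13.5 is highest there too.

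The germ-like clusters, built without the 6 members, Stra8, Lefty1 and Lefty2, were mostly of 1 library each. The 3 large E12.5 clusters, led by S phase histone genes such as Hist1h1b, by Mogat2 and Pdlim4, and by mitotic genes such as Plk1, had Id3 at 235, 164 and 178 CPM. They had Id1 at 15.2, 13.1 and 14.0 CPM, so Id1 was near level among them. At E13.5 Id3 was at 124 CPM in the cluster led by histone genes, 86.4 CPM in that led by Tuba3b, Sycp1 and Lefty1, 57.3 CPM in the largest and 26.7 CPM in that led by Nanos2. Id4 was highest in the last of these, at 19.6 CPM against 7.57 to 9.13 CPM in the other E13.5 clusters of over 400 barcodes. The Nanos2 cluster also had the lowest levels of Lefty1 (25.8 CPM) and Lefty2 (19.9 CPM) among them.

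Apart from germ cells, a cluster of 4 barcodes at E12.5 against 25 at E13.5 was Sertoli-like by Amh and Cst9. At E13.5 its levels were 130 CPM for Id1, 71.7 CPM for Id2, 491 CPM for Id3 and 191 CPM for Smad7, all above those of germ-like barcodes, and Id4 had no UMI. Thinned to 2000 UMIs, 13 of 29 Sertoli-like barcodes (44.8%) held Id3 and 4 (13.8%) held Id1, against 31.6% and 2.85% of germ-like barcodes at E12.5 and 13.7% and 1.33% at E13.5. Median UMIs before thinning were 11394 in the Sertoli-like barcodes. At that depth Stra8, Lefty1, Lefty2 and Id4 were in 0 of 29, and 3 of 29, the limit that a count of 0 allows, is a share of 10.3% with a UMI. Before thinning, Lefty1 had 2 UMIs and Lefty2 1 in the Sertoli-like barcodes of each library, and Stra8 and Id4 had none. No type in these tables is known to lack Id1 or Id3, so a background share for them could not be read. Sertoli RNA in germ-like barcodes was low, with Amh at 0.285 and 1.60 CPM against 600 and 1580 CPM in the Sertoli-like barcodes.

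Id1 made up 6.76% of Id1 plus Id3 UMIs in germ-like barcodes at E12.5 (6.33 to 7.22%) against 8.05% at E13.5 (7.29 to 8.86%). In Sertoli-like barcodes it made up 22.6% (9.59 to 41.1%) and 20.9% (15.2 to 27.5%), and in an unnamed cluster with medians of 1840.5 and 2052 UMIs (116 and 75 barcodes) 21.6% (15.3 to 28.9%) and 25.5% (14.3 to 39.6%). The barcodes that the filter on genes and mitochondrial UMIs left out had 8.11% (1.70 to 21.9%) and 11.6% (3.89 to 25.1%). These shares rest on 3 and 5 Id1 UMIs, and their intervals include the germ-like shares. The E12.5 interval also includes the unnamed share and the E13.5 interval the Sertoli-like share, so these values cannot tell the sets apart.

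Genes whose counts went with a member across germ-like barcodes were ranked by the mean over both libraries of Pearson's r of log counts, among 6415 genes. For Id3 the highest were Hist1h2ap (0.204 at E12.5 against 0.262 at E13.5), Hist1h1b (0.205 and 0.255) and Hist1h1e (0.209 and 0.230), followed by Fbxo5 and Slbp. For Id2 they were Hist1h2ap (0.163 and 0.107), Hist1h1b, Hist1h1e, Hist1h1a and Hist1h2ae. For Id1 the values were weak, beside a 99th percentile of 0.0423 over all genes. They were led by Chd6 (0.0740 and 0.0763), Stmn1 (0.0354 and 0.111), Mdk (0.141 and -0.00202) and Smc4 (0.0375 and 0.0984). At the other end, the lowest mean for Id1 was that of Lefty2 (-0.120 and -0.0745). The counts of a barcode share its library and depth, so these values describe the 2 libraries only.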

How the data were processed

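Single-cell RNA-seq of 1 library of male germ cells at E12.5 and 1 at E13.5 was analysed. The deposited values are whole-number counts of UMIs per gene and barcode, not normalised, per the file headers and values. Per the submitters' processing notes, Cell Ranger (no version) and the builds mm10 and GRCm38 had been used. Gene annotation and strand setting are not given in the sources used here.

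A barcode was kept if it had at least 500 genes and less than 10% mitochondrial UMIs. They were clustered on 2000 variable genes with scanpy 1.11.5 and leidenalg 0.10.2 (Python 3.11.15, 30 components, 15 neighbours, resolution 0.5), leaving out the members, Stra8, Lefty1 and Lefty2. Clusters were named from marker lists, and a cluster of low UMI counts stayed unnamed. Germ-like barcodes in which a marker list of another cell type took 0.5% of UMIs or more, 3 at E12.5 and 1 at E13.5, were left out. That limit was set after seeing the data. Scrublet calls, 65 (2.48%) and 27 (1.01%), stayed in, and an alternative removed them.

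Counts of germ-like barcodes (59677114 and 58655564 UMIs) were summed and scaled to 1000000 (CPM). Levels have exact Poisson intervals, shares exact binomial (Clopper-Pearson) intervals and ratios exact conditional binomial intervals, all at 95% and for counting error only. A ratio was given with 3 or more UMIs on both sides. Comparisons of barcodes within a library used counts thinned at random to 14500 UMIs, a depth that 90% of barcodes in the shallower library reached, rounded down. Intervals and thinning were run on simulated Poisson counts, the model that the intervals assume, so this checks the calculation alone. It does not cover the wider spread of Id1 and Id3 across barcodes that their Fano factors show. Alternatives changed the filter, naming, doublets, somatic marker UMIs, shared barcodes, depth, denominator (TMM from edgeR 4.0.16 among them) and weighting.

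All 6 members, Stra8, Lefty1 and Lefty2 are named. Of each other list the 2 highest and 2 lowest ratios among genes at 10 CPM or more and the most abundant gene are named, and for likeness the 5 highest mean correlations. Some genes that these rules pick are not reported here. The members and lists were chosen with earlier results of these data known.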

Additional observations from a re-analysis of the deposited data

Results flagged for a closer look

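The level of Id3 in barcodes with Lefty1 or Lefty2 UMIs, over that in barcodes without, lay on opposite sides of 1 at the 2 stages. The ratio was 0.803 at E12.5 (0.732 to 0.882) and 2.17 at E13.5 (1.92 to 2.46), and neither interval included 1. The difference between the stages was not tested, since each stage is 1 library.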

How the results depend on the processing

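With 1 library a stage there is no replicate error, and stage cannot be told apart from library. No paired analysis was possible because each stage is 1 library. In each of 10 alternatives 4 members were at least 1.5-fold lower at E13.5 and Id4 at least 1.5-fold higher. The log2 ratios ran from -1.27 to -1.003 for Id1, -0.89 to -0.76 for Id2, -1.52 to -1.31 for Id3, 0.80 to 1.52 for Id4, -0.94 to -0.67 for Smad6 and -0.07 to -0.00 for Smad7. At 2000 UMIs the share of barcodes with Smad7 was 5.57% in the E12.5 library against 7.15% in the later one, the other way round from the deeper thinning.

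Ratios for Id1 within a library moved more. For Lefty at E12.5, beside 0.296, the ratio was 0.209 under a stricter filter (at least 2000 genes, less than 5% mitochondrial UMIs), and 0.234 without barcodes holding a UMI of a somatic marker under 2 CPM, an alternative chosen after seeing the data. It was 0.146 without thinning and 0.551 at 2000 UMIs. At E13.5 it was 1.26 at 2000 UMIs (0.581 to 2.64), beside 0.720. For Stra8, leaving out barcodes with any somatic marker UMI left 6 with Stra8 at E12.5 and 11 at E13.5, and the ratio was 6.83 and 5.99, beside 2.70 and 1.81. The cause was not tested, beyond the smaller number of barcodes. At 2000 UMIs too few UMIs remained for a Stra8 ratio. Another draw of the thinning gave 3.39 and 1.57 for Stra8 and 0.265 and 0.714 for Lefty. Behind the Stra8 ratio at E13.5 lie 7 Id1 UMIs.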

Other observations

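Among 6801 genes, those most raised in the 87 E12.5 barcodes with 2 or more Id1 UMIs were looked up after the values were seen. Phlda2, an imprinted gene that restrains placental growth, was at 62.6 CPM in these against 12.3 CPM in barcodes without Id1, 5.07-fold higher (3.92 to 6.49). Mdk, the secreted growth factor midkine, was at 85.6 against 28.3 CPM, 3.02-fold higher (2.45 to 3.70), and Zglp1 followed at 2.26-fold. These genes were picked by their size here and have not been checked beyond the 2 libraries. For Mdk, Pearson's r of log counts with Id1 was 0.141 across E12.5 barcodes and -0.00202 across E13.5 barcodes.

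At E12.5, 8 barcodes fell in a cluster otherwise made of E13.5 barcodes. They had Stra8 at 465 CPM, Id1 at 75.4 CPM (6 UMIs) and Id3 at 314 CPM, with a median of 7882 UMIs.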
